A study of Homo sapiens with 6 samples.

Results

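The genes described here build the machinery that moves proteins into the endoplasmic reticulum (ER) and between the ER and the Golgi. They were chosen by symbol, with earlier results of these data known. They comprise the SEC11, SEC13, SEC16, SEC22, SEC23, SEC24, SEC31, SEC61, SEC62, SEC63, SAR1 and TMED families. Also included are 8 genes of the COPI coat and 6 protein genes of the signal recognition particle (SRP). The rule found 52 of the 60419 genes in the deposited table, 48 of them protein-coding and 4 of them pseudogenes, on 18 chromosomes. Of these, 51 had a count in at least 1 library and 48 passed the filter on low counts and were tested.

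The RNA was from the wild-type line 12Z, human endometriotic cells (endometrial-type cells from outside the uterus) that have been immortalised, kept in 10% charcoal-stripped serum. Cells of the Myrrh group received an extract of myrrh, a plant resin, at 100 µg/mL in DMSO for 12 h, and the control group received DMSO, the solvent. There were 3 libraries per group, each from 1.5 µg of total RNA. The design asks which genes differ after the extract. All libraries come from 1 cell line, and whether the replicates were grown separately is not labelled, and p-values then measure only the spread between these libraries, which may be technical.

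Depth was 22454783 to 27588151 estimated counts per library. Keratins and mesenchymal genes were both present: the summed level of 8 epithelial markers was 1774 to 1866 CPM (counts scaled to a common library size) with DMSO and 1229 to 1358 CPM with Myrrh, while 8 stromal markers summed to 9636 to 9866 CPM and 3621 to 3843 CPM. Most of that fall was in COL1A1, at 5557 to 5885 CPM with DMSO and 750 to 782 CPM with Myrrh, and the other 7 stromal markers summed to 3952 to 4079 CPM and 2839 to 3092 CPM. Of the 7 epithelial markers tested, 2 were higher and 5 lower with Myrrh, and of the 8 stromal ones 2 were higher and 6 lower. CDH1, a defining epithelial gene, stayed at or below 0.329 CPM in all 6 libraries. Leukocyte markers summed to 34.1 to 34.9 CPM and 51.3 to 63.8 CPM, nearly all of it CD68, with CD3E at 0 in every library; 3 were tested, 1 higher and 2 lower. The endothelial markers stayed below 1 CPM in sum (0.901 to 0.968 CPM and 0.235 to 0.358 CPM), with CDH5 at 0, and none was tested. The part of these shifts in the results below was not tested. In RNA from bulk cultures, fewer cells of a type and less RNA per cell cannot be told apart.

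SRP binds the signal sequence of a secretory protein as it leaves the ribosome and brings it to the SEC61 channel, where SEC62 and SEC63 help it across and signal peptidase removes the signal. COPII coats, built from SAR1, SEC23, SEC24, SEC13 and SEC31 at exit sites that SEC16 organises, carry cargo from the ER, and COPI coats bring proteins back from the Golgi. Most TMED proteins span the membrane, select cargo and travel in both coats. Many of these genes are known targets of the unfolded protein response, in which the factors XBP1 and ATF6 bind short DNA elements in promoters.

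Promoter sequences were matched by symbol to RefSeq (GRCh38.p14) for 45 of the 52 genes, 44 of them tested, and 300 bases around each start were searched on both strands: 250 before it and 50 from it onward. The core of the unfolded protein response element (UPRE), TGACGTGG, was found in 9 of the 44 tested transport genes (20.5%), in 1.21% of the 11438 tested genes with a promoter and in 0.729% of all 35116 promoters. The 10 distinct sites are printed because the core had a larger share among transport genes than among tested genes, a description with no test. Each line gives 30 bases of the gene's own strand from 5′ to 3′, with the core, or its reverse complement CCACGTCA, in capitals.
SRP19, chr5:112861164-112861193 (+): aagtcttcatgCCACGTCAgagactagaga
SEC62, chr3:169966779-169966808 (+): ccctcctcgctCCACGTCAgagggaaccgg
SEC23A, chr14:39103221-39103250 (-): tcccctcctctTGACGTGGcagaggcggcg
SEC24A, chr5:134648595-134648624 (+): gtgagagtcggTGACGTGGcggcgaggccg
SEC16A, chr9:136484707-136484736 (-): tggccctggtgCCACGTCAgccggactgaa
SEC16B, chr1:177984297-177984326 (-): ttctgggcagcTGACGTGGcaacacagttt
COPA, chr1:160343227-160343256 (-): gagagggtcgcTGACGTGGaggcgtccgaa
COPB1, chr11:14499841-14499870 (-): cccacccccttCCACGTCAgccaaggactc
COPB2, chr3:139389825-139389854 (-): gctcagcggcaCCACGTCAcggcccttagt
COPB2, chr3:139389632-139389661 (-): tcccggaagttCCACGTCAgtcagtctgac

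Counted from the first base of the match, with the RefSeq start at 0, the sites lay at -112 in SRP19, -17 in SEC62, -4 in SEC23A, -179 in SEC24A, 15 in SEC16A, -31 in SEC16B, 5 in COPA and -48 in COPB1. The COPB2 sites lay at -196 and -3 from one start and at -163 and 30 from another. With Myrrh, 7 of the 9 genes with the core were called higher and 1 lower (median log2 fold change 0.69). Of the 35 tested transport genes with a promoter and without it, 26 were called higher and 5 lower, with a median of 0.50. The shares called higher were 77.8% and 74.3%. Over all 138 tested genes with the core, 66 (47.8%) were called higher and the median was 0.12. Of all tested genes, 39.3% were called higher, and of those with CCACG or CCAAT in the promoter 45.6% and 44.4%.

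The shorter letters CCACG, which lie inside the reverse complement of the UPRE core and are also the ATF6 box of the ER stress response element (ERSE), occurred in 39 of the 44 tested transport genes (88.6%), in 56.2% of tested genes with a promoter and in 38.1% of all promoters. The whole ERSE, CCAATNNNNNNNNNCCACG, was in none of these genes, in 0.14% of tested genes with a promoter and in 0.0769% of all promoters. ERSE-II, ATTGGNCCACG, was in none of these genes, in 0.122% of tested genes and in 0.0541% of all promoters. The letters CCAAT alone were in 18 of the 44 (40.9%), in 42.5% of tested genes and in 34.6% of all promoters. Neither form of a heat shock element, GAANNTTCNNGAA or TTCNNGAANNTTC, was found in a transport gene. Each was in 0.507% of tested genes and in 0.49% of all promoters. At the low shares of ERSE, ERSE-II and the heat shock elements, absence from 44 genes cannot set the transport genes apart. A match describes letters in this window only.

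The transport genes that moved furthest with Myrrh and had a promoter but no UPRE core were SEC11C, SEC61A1, SEC23B and SEC31B, and each held the ATF6 box on the opposite strand, so that the gene's own strand reads CGTGG (capitals in these 30-base windows).
SEC11C, chr18:59139832-59139861 (+): agtcgccggtcaCGTGGccgcaaggacgct
SEC61A1, chr3:128052341-128052370 (+): ccggcgggcgcgCGTGGcaggaagcggaag
SEC23B, chr20:18507850-18507879 (+): agtggacagcgcCGTGGcatgacgcgctgg
SEC31B, chr10:100519949-100519978 (-): ggaaacgttctcCGTGGgtctgtcagtgtc
The first 3 of these genes were higher with Myrrh and SEC31B was lower. The box was in 39 of the 44 tested transport genes, so its presence here says nothing about direction. SEC61A1 and SEC23B each also had another RefSeq promoter without the box.

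**Figure D1:**
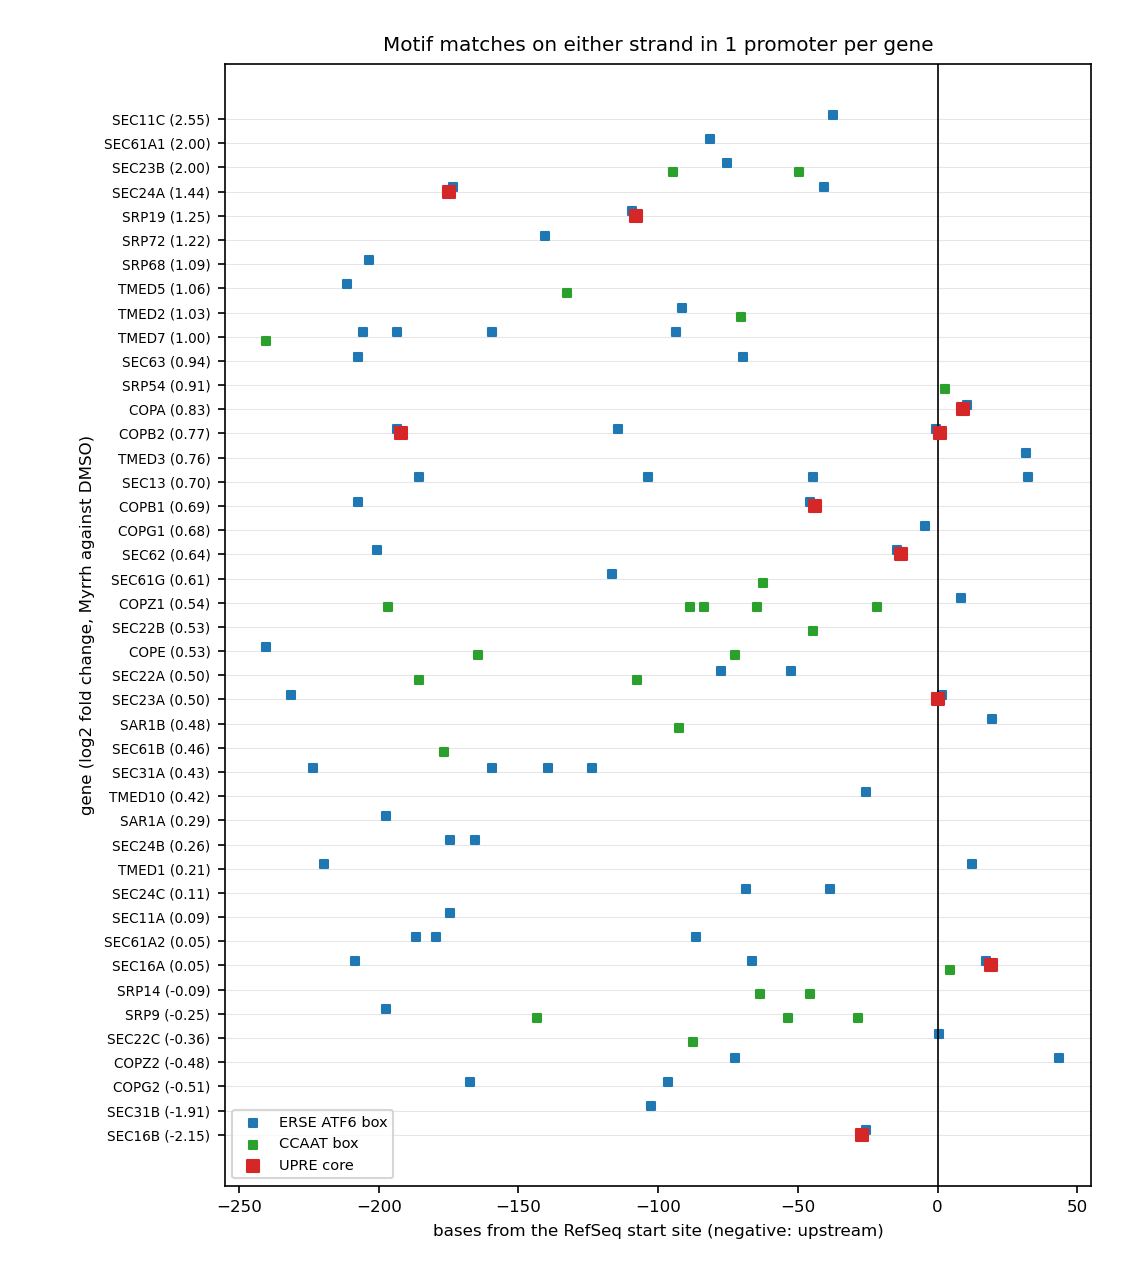
Positions of UPRE cores (large red), ATF6 boxes (blue) and CCAAT boxes (green) in 1 RefSeq promoter per transport gene; the horizontal axis is bases from the start site, each square is drawn at the middle of a match, and genes run down the page from the highest to the lowest log2 fold change. The red squares appear in genes from SEC24A (1.44) to SEC16B (-2.15), mostly close to the start.

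Most transport genes rose with Myrrh, and the rise was uneven. Of the 48 tested, 35 (72.9%) were called higher, 7 (14.6%) lower and 6 neither way by edgeR's quasi-likelihood test at an adjusted p under 0.05, against 39.3% of all 16395 tested genes called higher and 39.1% called lower. At least 2-fold, 10 (20.8%) were called higher, against 11.3% of all genes, and 2 lower, against 18%. The median log2 fold change was 0.53, between extremes of -2.15 and 2.55, beside -0.02 over all genes. In 41 of the 48 the 3 DMSO libraries did not overlap the 3 Myrrh libraries in CPM. That share was not computed over all genes, so the count cannot set the transport genes apart. Together the genes took 0.488%, 0.481% and 0.501% of all counts with DMSO and 0.708%, 0.69% and 0.697% with Myrrh. On the per-length scale of transcript abundance, TPM, they summed to 3878 ± 90.6 TPM and 5886 ± 82.8 TPM (SD, n = 3). Scaling by library totals instead of TMM factors moved the median of all genes to -0.16, and that of the transport genes to 0.39.

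Of the 52 genes, 4 were not tested. The pseudogene SEC63P2 had no count, the pseudogene SEC11B had at most 2 counts in a library, and SEC13P1 reached at most 6 counts in 1 library. TMED6, a gamma-subfamily TMED gene, had 7, 8 and 16 counts with DMSO and 8, 1 and 0 with Myrrh. The pseudogene SEC63P1 was tested at 0.421 to 0.807 CPM and was not called.

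**Figure D2:**
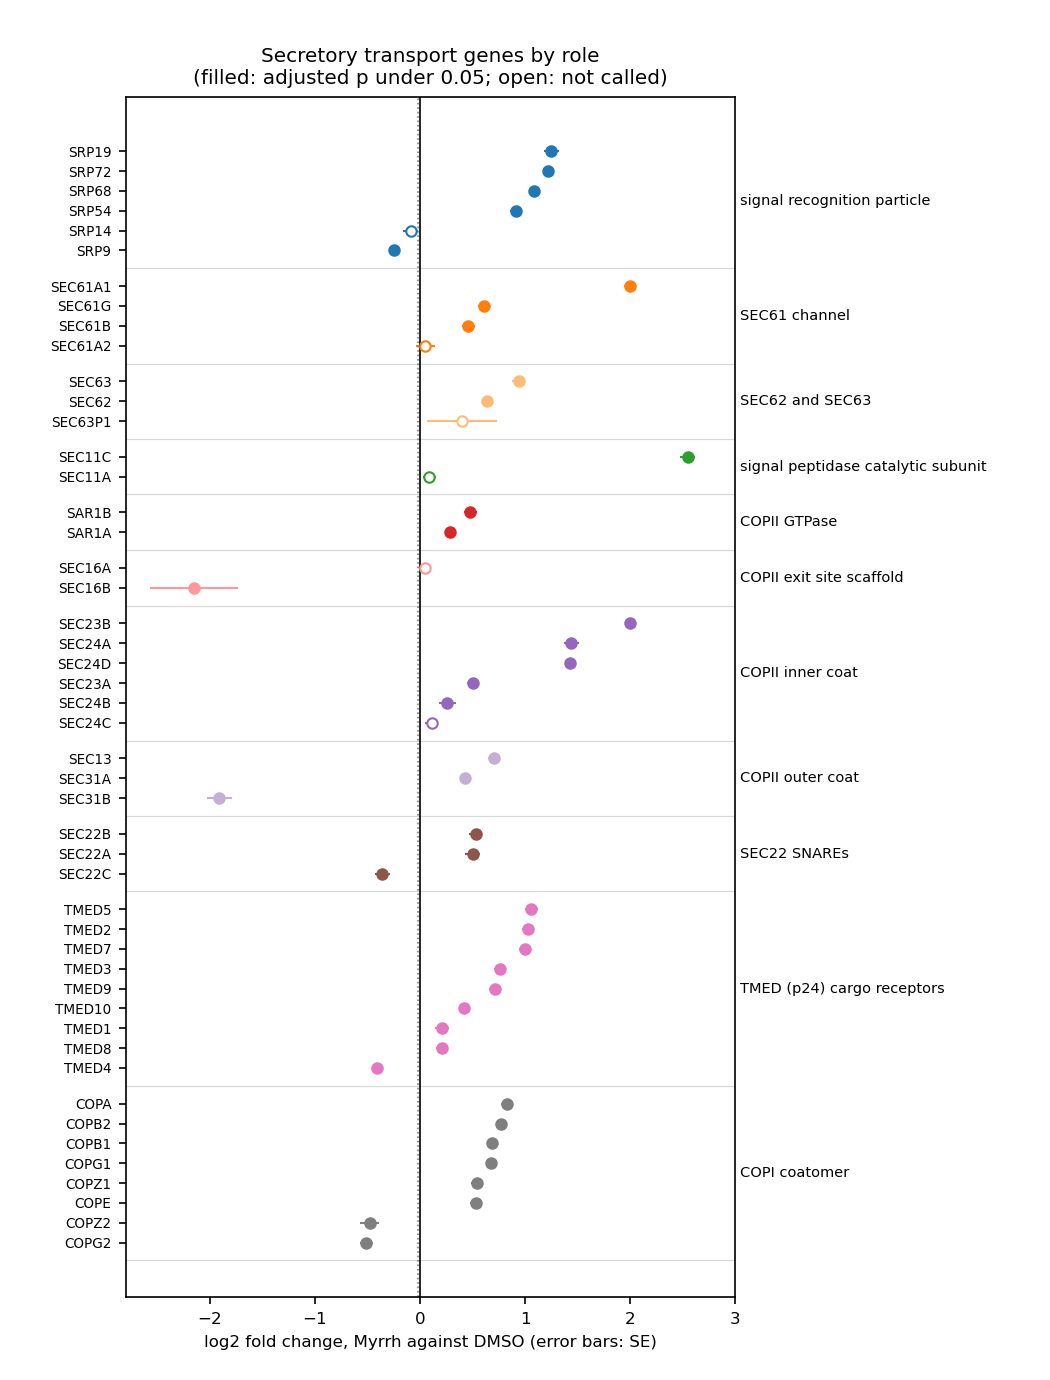
Log2 fold change of Myrrh against DMSO for the 48 tested transport genes, grouped by role; points are edgeR estimates, bars are standard errors, filled points passed the test and the dotted line is the median of all genes. Most roles hold points on either side of the zero line or close to it, with SEC11C (2.55), SEC61A1 (2.0) and SEC23B (2.0) furthest to the right and SEC16B (-2.15) and SEC31B (-1.91) furthest to the left.

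The protein genes of SRP divided by the domain they belong to. SRP19, SRP54, SRP68 and SRP72 sit on the part of the particle that recognises the signal sequence and the SRP receptor, and all of them rose. SRP9 and SRP14 form the heterodimer of the Alu domain, which slows elongation, and neither was called higher. SRP19, an assembly protein, was at 31.5, 30.8 and 30.2 CPM with DMSO and 67.4, 82.8 and 69.1 CPM with Myrrh. The groups lay far apart, and the log2 fold change was 1.25 ± 0.07 (SE; 2.37-fold, edgeR adjusted p = 1.26e-13). SRP72, which pairs with SRP68, rose by 1.22 ± 0.05, SRP68 by 1.09 ± 0.05 and SRP54, the GTPase that holds the signal sequence, by 0.91 ± 0.05. SRP9 was at 267, 267 and 280 CPM with DMSO and 227, 239 and 220 CPM with Myrrh. Every Myrrh library was below every DMSO library, by a log2 fold change of -0.25 ± 0.05 (edgeR adjusted p = 0.000209). SRP14 overlapped between groups, at 271 to 290 CPM and 246 to 300 CPM, with a log2 fold change of -0.09 ± 0.07 (edgeR adjusted p = 0.222). It was called lower without Myrrh library 2, the highest of its group (-0.19), with library totals (-0.24) and with a filter of 5 CPM in 3 libraries (-0.19). On the TPM scale SRP72 stood at 0.0848 to 0.0952 of SRP9 with DMSO and at 0.215 to 0.267 with Myrrh, and SRP54 at 0.0956 to 0.104 and 0.179 to 0.214 of SRP14; these ratios were chosen after values were seen and are a description.

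SEC61A1, the pore-forming alpha subunit of the translocon (chr3:128051641-128071683, + strand, GRCh38) was at 188, 184 and 197 CPM with DMSO and at 750, 727 and 803 CPM with Myrrh. All Myrrh libraries lay above all DMSO libraries, a log2 fold change of 2.0 ± 0.06 (4.01-fold, edgeR adjusted p = 8.36e-21). Its paralog SEC61A2 was at 16.8, 15.5 and 13.5 CPM and at 16.3, 15.8 and 15.2 CPM. The groups overlapped, and the difference of 0.05 ± 0.09 was not called (edgeR adjusted p = 0.594; 95% interval -0.12 to 0.22). SEC61A2 therefore made up 9.42% to 12.1% of alpha-subunit TPM with DMSO and 3.24% to 3.46% with Myrrh. The small subunits rose less than the pore: SEC61G by 0.61 ± 0.06 and SEC61B by 0.46 ± 0.06. SEC61B was at 83.3, 86.5 and 79.3 CPM with DMSO and 108, 128 and 106 CPM with Myrrh, again without overlap. Summed alpha-subunit TPM over SEC61B TPM was 0.307 to 0.343 with DMSO and 0.738 to 0.953 with Myrrh, a ratio chosen after values were seen.

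SEC63, a membrane J-domain protein that recruits the chaperone BiP to the channel, was at 92.1, 87.4 and 95.1 CPM with DMSO and 172, 190 and 164 CPM with Myrrh. It rose by 0.94 ± 0.06 on the log2 scale (edgeR adjusted p = 4.6e-14). SEC62, its partner, was at 106, 104 and 115 CPM and at 167.6, 170.3 and 166.9 CPM, a rise of 0.64 ± 0.05 (edgeR adjusted p = 1.85e-11). Neither gene's groups overlapped.

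SEC11A and SEC11C are alternative catalytic subunits of signal peptidase, and by counts over all 6 libraries only SEC11C was called. SEC11C (chr18:59139477-59158836, + strand) was at 10.8, 10.7 and 9.81 CPM with DMSO and 60.7, 65.6 and 56 CPM with Myrrh. This was the largest rise among the 48, 2.55 ± 0.07 on the log2 scale (5.84-fold, edgeR adjusted p = 8.64e-21). SEC11A was at 188, 185 and 184 CPM and at 186, 220 and 189 CPM. Its groups overlapped, and its difference of 0.09 ± 0.06 was not called (edgeR adjusted p = 0.147). It was called on the TPM scale (0.16), and by counts without Myrrh library 1 (0.15) or Myrrh library 3 (0.14). SEC11C made up 7.06% to 7.56% of SEC11 TPM with DMSO and 29.4% to 31.8% with Myrrh.

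**Figure D3:**
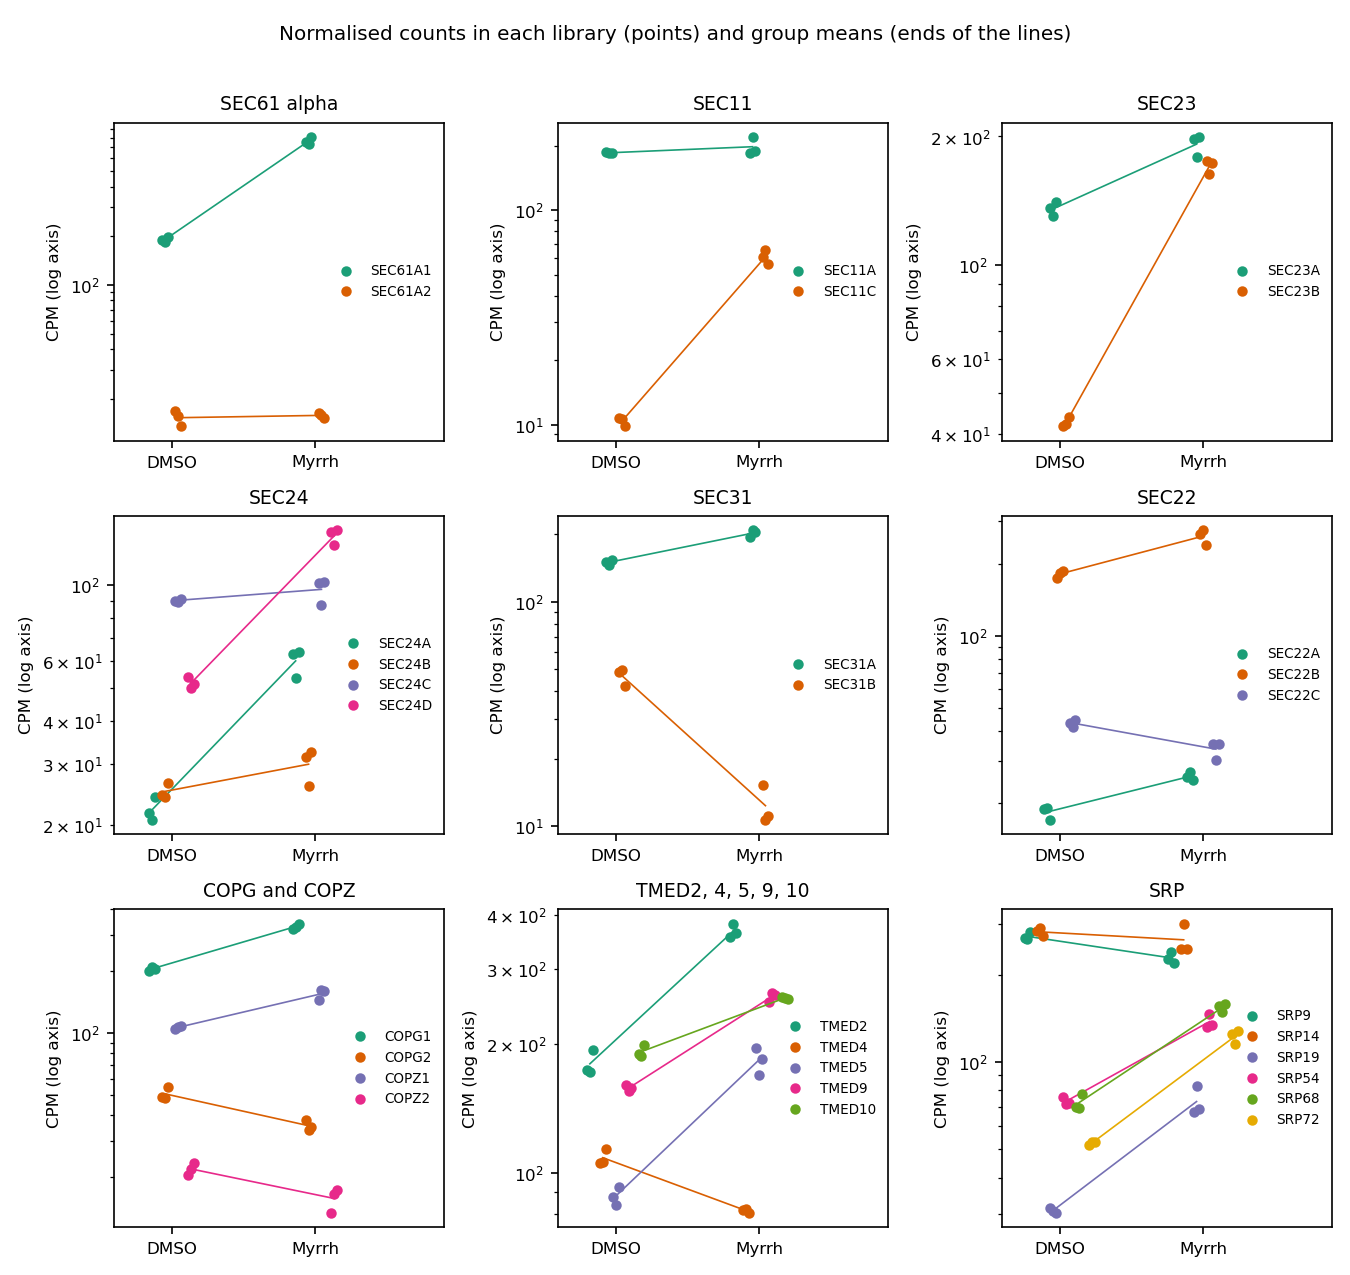
CPM in each library, on log axes, for members of 9 groups of transport genes; points are single libraries and lines join the group means. SEC11C, SEC61A1 and SEC23B climb steeply beside flatter paralogs, and SEC31B falls beside a rising SEC31A.

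Among COPII genes, 9 of 13 tested were called higher and 2 lower, with a median log2 fold change of 0.43. Over all tested genes, 39.3% were called higher and 39.1% lower, with a median of -0.02. The GTPase genes that start coat assembly rose modestly in CPM. SAR1A was at 125, 123 and 133 CPM with DMSO and 149, 164 and 151 CPM with Myrrh, a rise of 0.29 ± 0.05 (edgeR adjusted p = 2.48e-05). SAR1B was at 54, 57.3 and 59.3 CPM and at 78.6, 86.9 and 72 CPM, a rise of 0.48 ± 0.06 (edgeR adjusted p = 2.26e-07). Neither overlapped between groups, and both rose more on the TPM scale, by 0.62 and 1.07.

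No gene of the exit-site scaffold was called higher. SEC16A, the main scaffold, was at 153, 152 and 151 CPM with DMSO and at 164, 156 and 153 CPM with Myrrh, with a log2 fold change of 0.05 ± 0.05 that was not called (edgeR adjusted p = 0.363). SEC16B (chr1:177923956-177984303, - strand), a shorter paralog, was near the limit of detection. It had 35.65, 27.99 and 15.69 estimated counts with DMSO and 4.82, 5.27 and 4.9 with Myrrh, or 0.577 to 1.52 CPM and 0.21 to 0.235 CPM. The groups did not overlap, and the log2 fold change was -2.15 ± 0.42 (edgeR adjusted p = 4.41e-05); on the log2(TPM + 1) scale, which compresses low values, it was -0.51.

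The inner coat had the highest median of the COPII layers, a log2 fold change of 0.97. Of its 6 genes, 5 were called higher, against 39.3% of all tested genes. SEC23 is the part that activates the GTPase of SAR1. SEC23B (chr20:18507482-18561415, + strand) was at 41.7, 42.2 and 43.8 CPM with DMSO and 175, 163 and 173 CPM with Myrrh, a rise of 2.0 ± 0.05 (4.01-fold, edgeR adjusted p = 7.36e-22). SEC23A was at 135, 130 and 140 CPM and at 197, 179 and 199 CPM, a rise of 0.50 ± 0.05 (edgeR adjusted p = 4.63e-09). Neither overlapped between groups, and SEC23B went from 32.3% to 34.7% of SEC23 TPM with DMSO to 55.9% to 58.9% with Myrrh.

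SEC24 proteins bind the cargo, and the isoforms are commonly set in 2 subgroups, SEC24A with SEC24B and SEC24C with SEC24D. In each subgroup 1 member rose strongly and the other little or not at all. SEC24A was at 21.6, 20.7 and 24.2 CPM with DMSO and 63, 53.6 and 63.6 CPM with Myrrh, a rise of 1.44 ± 0.07 (edgeR adjusted p = 1.4e-14). SEC24D was at 53.7, 50 and 51.4 CPM and at 142, 131 and 144 CPM, a rise of 1.43 ± 0.05 (edgeR adjusted p = 1.56e-18). Both were separated fully between groups. SEC24B was at 24.4, 24.2 and 26.5 CPM and at 31.5, 26 and 32.6 CPM, and was the only called member whose groups overlapped. Its rise of 0.26 ± 0.08 (edgeR adjusted p = 0.00368) was lost with library totals (0.12) and with the 5 CPM filter (0.16). SEC24C was at 89.9, 89.3 and 91.2 CPM and at 101, 87.5 and 102 CPM, overlapping, and its 0.11 ± 0.06 was not called (edgeR adjusted p = 0.0846). It was called without Myrrh library 2 (0.18) and with no filter on low counts (0.14). In TPM, SEC24C was the largest isoform in every DMSO library (42.9% to 43.3%) and SEC24D in every Myrrh library (52.1% to 56.5%).

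Of the outer coat, SEC13 and SEC31A rose and SEC31B fell. SEC13, which also belongs to the nuclear pore, was at 99.6, 106 and 98.9 CPM with DMSO and 161.4, 168.8 and 163.6 CPM with Myrrh, a rise of 0.70 ± 0.05 (edgeR adjusted p = 1.74e-12). SEC31A, the ubiquitous partner of SEC13, was at 151, 146 and 153 CPM and at 194, 208 and 204 CPM, a rise of 0.43 ± 0.05 (edgeR adjusted p = 3.29e-08). SEC31B (chr10:100486642-100519864, - strand) was at 48.6, 49.7 and 42.2 CPM and at 15.3, 10.7 and 11.1 CPM, a log2 fold change of -1.91 ± 0.12 (3.77-fold lower, edgeR adjusted p = 9.77e-08). None of these overlapped between groups. SEC31B made up 11.1% to 14% of SEC31 TPM with DMSO and 2.6% to 4.28% with Myrrh, while the summed SEC31 TPM overlapped between groups (129 to 147 and 140 to 148).

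SEC22B is the vesicle SNARE of ER to Golgi traffic, and SEC22A and SEC22C are relatives of less defined function. SEC22B was at 174, 182 and 186 CPM with DMSO and 267, 275 and 240 CPM with Myrrh, a rise of 0.53 ± 0.06 (edgeR adjusted p = 5.41e-09). SEC22A was at 18.8, 19.1 and 17 CPM and at 25.7, 26.9 and 24.8 CPM, a rise of 0.50 ± 0.07 (edgeR adjusted p = 7.66e-07). SEC22C was at 43.4, 41.6 and 44.4 CPM and at 35.3, 30.2 and 35.2 CPM, a log2 fold change of -0.36 ± 0.07 (edgeR adjusted p = 1.87e-05). Each was separated between groups in CPM. On the TPM scale the fall of SEC22C was not called (-0.07, limma adjusted p = 0.587).

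Of the 9 tested TMED genes, 8 were called higher and 1 lower, against 39.3% and 39.1% of all tested genes. Their median log2 fold change was 0.71, beside -0.02 over all genes. TMED5, a gamma-subfamily member with the highest estimate, was at 87.8, 84.3 and 92.5 CPM with DMSO and 196, 170 and 185 CPM with Myrrh, a rise of 1.06 ± 0.06 (edgeR adjusted p = 4.2e-15). TMED2, the only beta-subfamily member and a partner of TMED10 in sorting GPI-anchored proteins, rose by 1.03 ± 0.06 from a mean of 180 CPM to 367 CPM. The gamma members TMED7 and TMED3 rose by 1.0 ± 0.06 and 0.76 ± 0.06, and TMED10, the delta-subfamily member, by 0.42 ± 0.05. The alpha subfamily parted: TMED9 rose by 0.71 ± 0.05, from a mean of 158 CPM to 258 CPM, while TMED4 fell. TMED4 was at 106, 106 and 114 CPM with DMSO and at 81.7, 82.4 and 80.6 CPM with Myrrh, without overlap, a log2 fold change of -0.41 ± 0.05 (edgeR adjusted p = 3.75e-08). In TPM, TMED4 went from 11.6% to 12% of the family with DMSO to 5.08% to 5.34% with Myrrh, and TMED2 from 16.2% to 17.9% to 20.7% to 21.3%.

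The calls of TMED1 and TMED8 were the least secure in the family. TMED1 rose by 0.21 ± 0.07 (edgeR adjusted p = 0.0132), and the call was lost without DMSO library 1 (0.19), DMSO library 3 (0.17) or Myrrh library 3 (0.16), with library totals (0.06), with the 5 CPM filter (0.11) and on the TPM scale (0.19). Exons of the opposite-strand gene DNM2 cover 51.3% of its exon bases. TMED8 rose by 0.21 ± 0.06 (edgeR adjusted p = 0.00233), and the call was lost with library totals (0.07), with the 5 CPM filter (0.11) and on the TPM scale (0.22).

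Of the 8 COPI genes, 6 were called higher and 2 lower, against 39.3% and 39.1% of all tested genes. Their median log2 fold change was 0.61, beside -0.02 over all genes, and none of these 8 reached 2-fold. Those of the 8 that rose spanned a narrow range, from 0.53 in COPE to 0.83 in COPA. The symbol rule left out ARCN1, the delta subunit of the coat, which rose by 1.05 ± 0.05. COPA, the alpha subunit, which with the beta-prime subunit COPB2 binds retrieval signals of cargo, was at 219, 207 and 226 CPM with DMSO and 391, 371 and 401 CPM with Myrrh, a rise of 0.83 ± 0.06 (edgeR adjusted p = 3.58e-13). COPB2 rose by 0.77 ± 0.05, COPB1, the beta subunit, by 0.69 ± 0.05, and COPE, the epsilon subunit, by 0.53 ± 0.05. The gamma and zeta subunits exist as paralogs, and in both the first rose and the second fell. COPG1 was at 201, 210 and 206 CPM and at 321, 328 and 341 CPM, a rise of 0.68 ± 0.05 (edgeR adjusted p = 8.41e-12). COPG2 was at 48.9, 48.2 and 54.8 CPM and at 37.6, 33.8 and 34.9 CPM, a log2 fold change of -0.51 ± 0.06 (edgeR adjusted p = 5.95e-08). COPG1 and COPG2 therefore moved in opposite directions, each without overlap between groups. COPZ1 was at 104, 107 and 109 CPM and at 145, 162 and 160 CPM, a rise of 0.54 ± 0.05 (edgeR adjusted p = 5.26e-10). COPZ2 was at 20.4, 21.8 and 23.3 CPM and at 13.3, 16.4 and 17.2 CPM, a log2 fold change of -0.48 ± 0.09 (edgeR adjusted p = 2.15e-05). The second paralog shrank in TPM from 9.66% to 11.7% to 4.57% to 5.58% for COPG2 and from 32.2% to 36.6% to 15% to 18.5% for COPZ2. The ratio of summed COPG to summed COPZ overlapped between groups, at 1.51 to 1.66 and 1.47 to 1.69.

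Whether close paralogs moved by different amounts was tested on the log2 ratio of their CPM within each library (pseudocount 1 CPM) in 11 pairs. The pairs were chosen with earlier results of these data known. In all 11 the DMSO and Myrrh ratios did not overlap, but other gene pairs were not measured for comparison. A two-sided exact permutation test gave p = 0.1 for each, also after adjustment over the pairs. This is the smallest p that 3 libraries against 3 allow, so no pair could pass 0.05 and the test cannot decide the question. The ratio of SEC11A to SEC11C moved from 4.03 ± 0.06 to 1.69 ± 0.08 (SD), a difference of -2.34. SEC31A over SEC31B moved by 2.28, SEC61A1 over SEC61A2 by 1.95, SEC23A over SEC23B by -1.48, SEC24C over SEC24D by -1.31, COPG1 over COPG2 by 1.18, SEC24A over SEC24B by 1.15, COPZ1 over COPZ2 by 1.0 and SEC22A over SEC22C by 0.83. SEC16A over SEC16B moved by 0.75, or by 0.25 with a pseudocount of 5 CPM. SAR1A over SAR1B moved least, by -0.18, or by -0.45 in TPM.

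**Figure D4:**
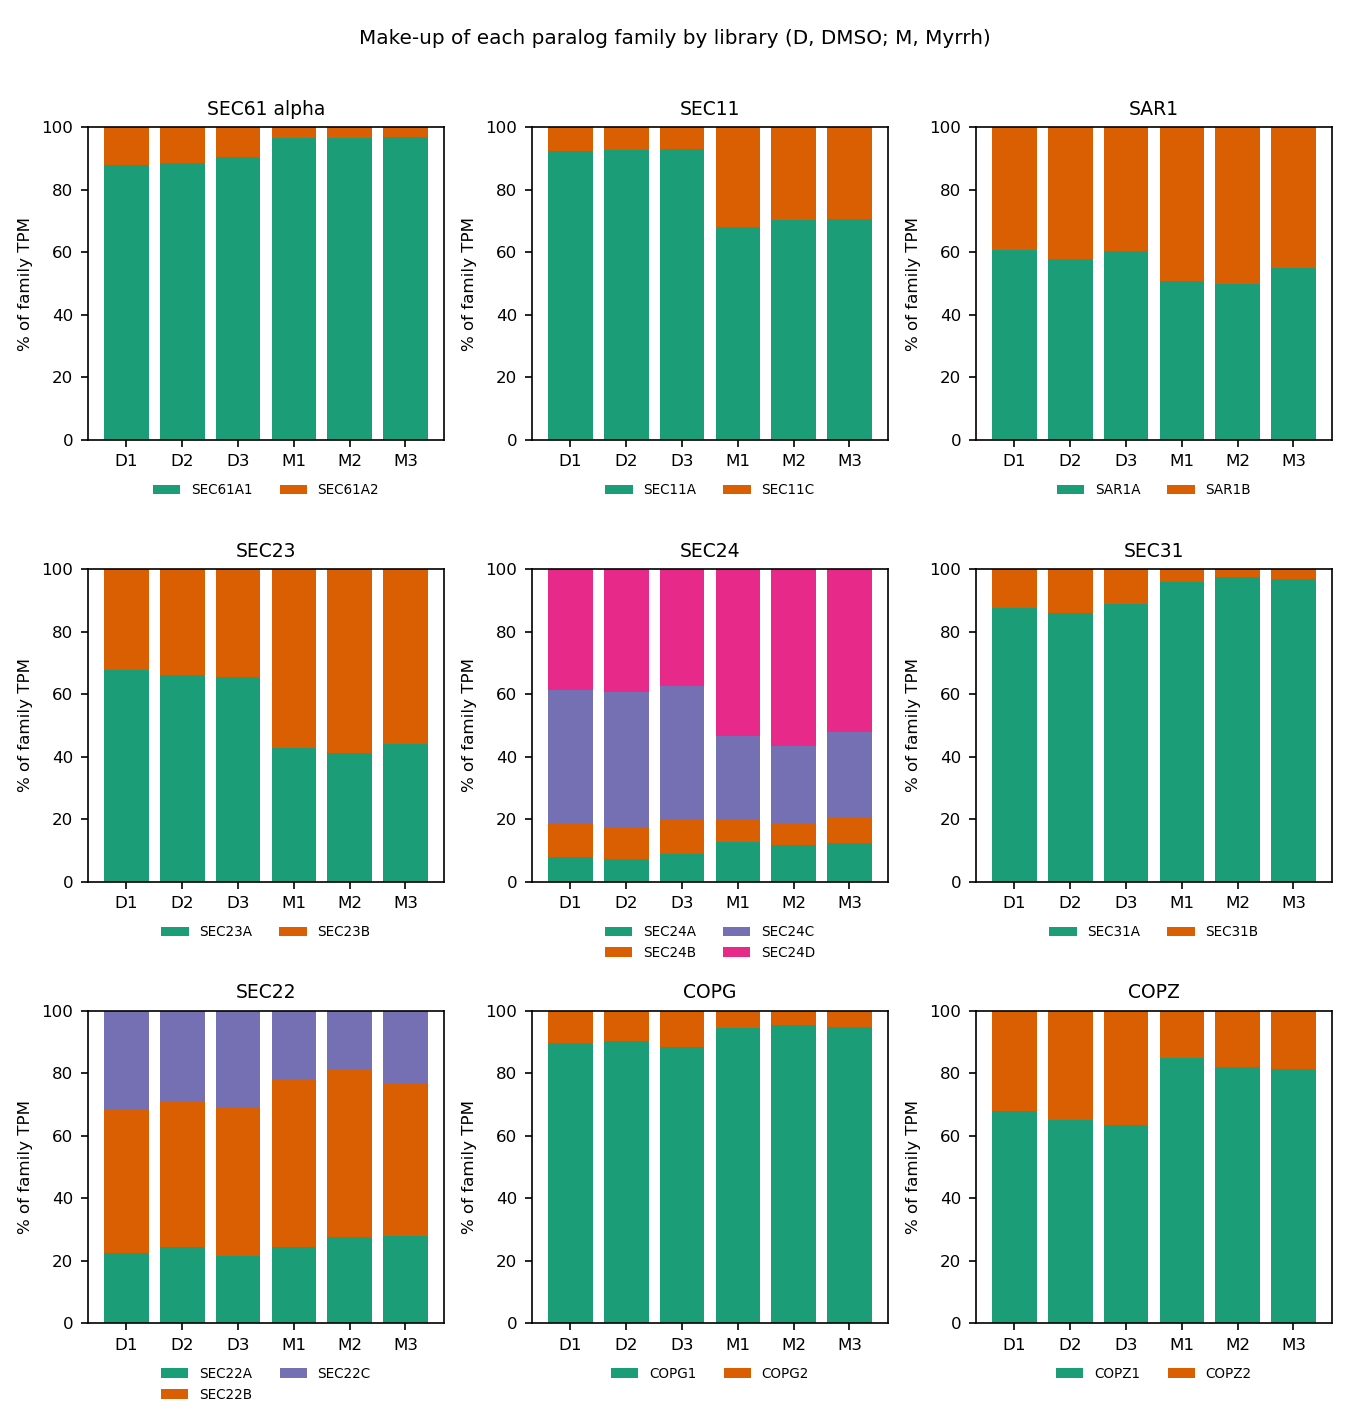
Share of each paralog in the summed TPM of its family, in percent, for each DMSO (D) and Myrrh (M) library; bars stack to the whole family. SEC11C grows from 7.06% to 7.56% with DMSO to 29.4% to 31.8% with Myrrh, SEC23B and SEC24D also grow, and SEC31B, COPG2, COPZ2 and SEC61A2 shrink.

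Genes of the same pathway outside the symbol rule were listed by function: 72 genes in 5 lists, all tested. The lists were chosen with earlier results of these data known, so their shares are a description only. Of the 72 genes, 60 (83.3%) were called higher and 6 (8.33%) lower, 25 rose at least 2-fold, and the median log2 fold change was 0.66. Over all tested genes, 39.3% were called higher, 39.1% lower and 11.3% at least 2-fold higher. Among SRP receptor, translocon-associated and signal peptidase genes, 9 of 11 rose and 1 fell. SRPRB, the membrane subunit of the SRP receptor, rose by 2.33 ± 0.06 from a mean of 27.8 CPM to 140 CPM, and SSR3, a subunit of the translocon-associated complex, rose by 1.72 ± 0.05. TRAM2 was called lower by counts, at -0.19 ± 0.05, but not on the TPM scale (-0.15, limma adjusted p = 0.12). Among oligosaccharyltransferase genes, which attach N-glycans in the ER, 10 of 12 rose, led by the catalytic subunit STT3A (1.27 ± 0.06) and by RPN1 (1.23 ± 0.05), and TUSC3 fell (-0.43 ± 0.06).

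At exit sites, 12 of 15 listed genes rose and 1 fell. PREB, also called SEC12, the exchange factor that loads SAR1 with GTP, rose by 1.56 ± 0.06, and MIA3, which helps export collagen, by 1.55 ± 0.06, while ERGIC1 was called lower by counts, at -0.15 ± 0.05, but not on the TPM scale (-0.09, limma adjusted p = 0.322). Among COPI partners and retrieval receptors, 10 of 13 were called higher by counts and 3 lower, against 39.3% and 39.1% of all tested genes. ARFGAP3, which turns off the GTPase of the COPI coat, rose by 1.12 ± 0.06 and ARCN1, the delta subunit of the coat, by 1.05 ± 0.05. ARF5, a GTPase of the Golgi, fell by 0.26 ± 0.06. ARF3, a related GTPase, was at -0.72 ± 0.05 by counts and was not called on the TPM scale (-0.14, limma adjusted p = 0.0605). Of the SNARE, Rab and tether genes, 19 of 21 rose and none was called lower. Their highest were the SNAREs GOSR2, which acts at the Golgi (1.83 ± 0.05), and BNIP1, which acts in return traffic to the ER (1.57 ± 0.09).

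Counts and TPM did not give the same fold for every gene. On log2(TPM + 1), limma called 34 transport genes higher and 6 lower, against 38.9% and 33.6% of all genes, with a median of 0.65 (0.04 over all genes). The quotient of a gene's count and its TPM in a library is proportional to the transcript length that RSEM assigned to the gene, and it was set relative to the median gene of that library. This implied length was measured for 44 transport genes, a comparison chosen after the difference between scales was seen. It was shorter with Myrrh in 6 of the 44 (13.6%), against 10.6% of 9439 genes, and longer in 6, against 10.4%. The share of transport genes was thus close to that of all genes in both directions.

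SAR1B had the largest shift, from 0.976, 0.949 and 0.993 of the median gene with DMSO to 0.654, 0.682 and 0.643 with Myrrh (log2 -0.56 ± 0.03, limma adjusted p = 0.000734). COPZ1 went from 0.795, 0.816 and 0.816 to 0.644, 0.648 and 0.64 (log2 -0.33 ± 0.02, limma adjusted p = 0.000731). TMED10 went from 0.923, 0.878 and 0.917 to 0.709, 0.689 and 0.679 (log2 -0.39 ± 0.03, limma adjusted p = 0.00165). None of these overlapped between groups. SEC62 (-0.40), SAR1A (-0.29) and SEC22C (-0.24) were also shorter. For SEC62, TMED10 and COPZ1 the TPM fold changes were larger than those of the counts, at 1.07, 0.86 and 0.92. That follows from the quotient that defines implied length and is not a separate result. The 6 longer genes were SEC31A (0.29), SRP68 (0.17), SEC16A (0.15), SRP19 (0.11), SRP54 (0.09) and SRP14 (0.08); without DMSO library 1, DMSO library 3, Myrrh library 1 or Myrrh library 3 only 2 genes were called longer, and without DMSO library 2 only 3.

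**Figure D5:**
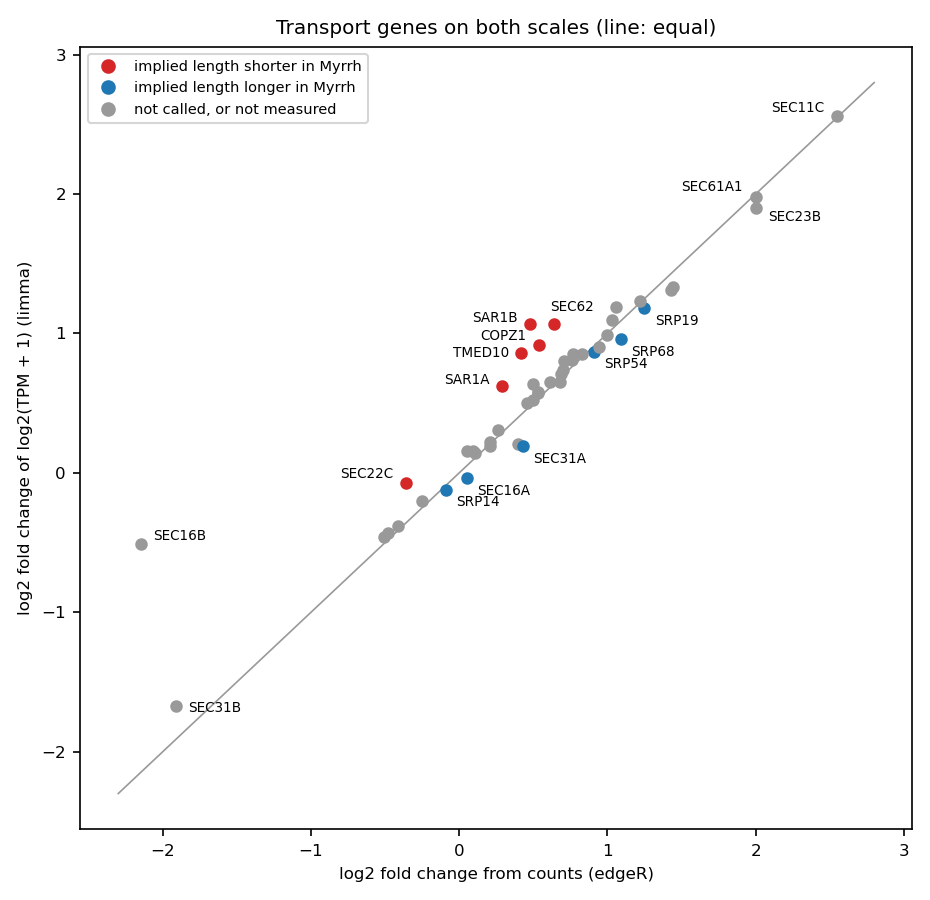
Log2 fold change of each tested transport gene from counts (horizontal) and from log2(TPM + 1) (vertical); red genes had a shorter and blue genes a longer implied transcript length with Myrrh. Red genes such as SAR1B (0.48 and 1.07) and TMED10 (0.42 and 0.86) lie above the line of equal values, which follows from how implied length is defined. SEC16B (-2.15 and -0.51) lies above the line at a low count.

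RSEM can divide a read among the genes it matches. Counts were not whole in all 6 libraries for 17 of the 48 tested genes, in some libraries for 6 and in none for 25. In each library, 29.7% to 30.3% of all genes with a count had one that was not whole. The 17 included SEC61A1, SEC24A, SEC31B, SEC16B and COPG2, and their levels rest partly on that division. Whether similar sequence or overlap with a gene on the opposite strand lay behind it was not tested. Exon bases of 21 tested genes are shared with a gene on the opposite strand, most of all TMED1 and SEC24C (42.9%), and whether reads were counted by strand was not stated in the sources used.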

How the data were processed

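Per the labels' protocols, total RNA was made into libraries with an Illumina TruSeq RNA kit. The authors' deposited tables hold estimated counts per gene and log2(TPM + 1) per gene; the submitters' processing notes name STAR, RSEM 1.3.1 and GRCh38, without the annotation release or strand setting. Estimated counts were rounded, filtered with filterByExpr and scaled with TMM factors (1.05 with DMSO, 0.933 to 0.973 with Myrrh). All 16395 genes kept were fitted with edgeR 4.0.16 in R 4.3.3 (glmQLFit, robust, two-sided F-test, Benjamini-Hochberg over all genes, threshold 0.05). The log2(TPM + 1) values and implied lengths (genes with at least 5 TPM and 50 counts in every library) were fitted with limma 3.58.1. DESeq2 1.42.0 served as an alternative. Standard errors are the log2 fold change over the root of F.

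The symbol rule, function lists, paralog pairs and markers were chosen with earlier results of these data known. Values in all libraries were given, per role, for the called genes with the highest and lowest log2 fold change and for paralog pairs; per function list, up to 2 called genes at each end were named. Promoters came from RefSeq (GRCh38.p14), of which the first 20 transcribed bases were found in a GENCODE transcript for 47 of 61; gene positions and exons came from GENCODE release 29 on GRCh38. Within groups, chi-square per degree of freedom ranged from 3.65 to 8.71: no 2 libraries agreed within sampling noise.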

Additional observations from a re-analysis of the deposited data

How the results depend on the processing

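The counts of transport genes called higher, called lower and called at least 2-fold higher stayed within 1.5 times their values under DESeq2, other scaling factors, other filters, log2(TPM + 1) and the loss of any 1 library; a test against a log2 fold change of 0.5 (glmTreat) left 22 called higher and 2 lower, and 1 gene of the function lists lower. The transport genes called at least 2-fold higher fell from 10 to 7 with library totals and to 7 with the 5 CPM filter. On log2(TPM + 1), 2 genes of the function lists were called lower. The median of the transport genes was 0.44 with at least 5 CPM in 3 libraries, 0.39 with library totals and 0.65 on log2(TPM + 1). With library totals the median of all genes was -0.16. DESeq2 gave -0.14, but over a larger set of genes that was not filtered on low counts. RLE scaling factors on the filtered genes gave -0.02. Of the genes not called, some changed sign: SEC61A2 (-0.05 with the 5 CPM filter, -0.09 with library totals, -0.03 to 0.12 leaving out single libraries, negative only without DMSO library 3), SEC16A (-0.05, -0.09 and, on log2(TPM + 1), -0.04), SEC11A (-0.00 and -0.05) and SEC24C (-0.03 with library totals). The cause was not tested. Deviations of same-numbered libraries of the 2 groups had correlations of -0.0596, -0.00454 and 0.0361, and those of differently numbered ones -0.0928 to 0.102. With 3 libraries per group, these values cannot decide whether equal numbers mark a shared culture or day. With the replicate number as a block, 35 transport genes were called higher, 7 lower and 11 at least 2-fold higher, with a median of 0.53. Of the function lists, 60 genes were then called higher and 7 lower. Transport genes with a longer implied length numbered 2 to 6 when 1 library was left out. Depth limits SEC16B, SEC63P1 and the 4 genes not tested.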

Other observations

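The whole ERSE, found in no transport gene, occurred in the promoters of 16 other tested genes. With Myrrh, 15 of these were called higher and 1 lower, with a median log2 fold change of 1.23, beside 39.3% of all tested genes called higher. That share includes genes without a promoter sequence. Among tested genes with CCACG or CCAAT in the promoter, 45.6% and 44.4% were called higher. ERSE-II occurred in 14 tested genes, of which 9 were called higher and 1 lower (median 0.32). These counts describe letters in promoter windows and were not tested.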
